A study of Rattus norvegicus with 12 samples.

Results

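The miR-181 family was described in small RNA libraries of cultured rat cortical neurons in which the RNA-binding proteins Staufen2 or Pumilio 2 had been depleted. Members were chosen by name, as every entry called miR-181a, miR-181b, miR-181c or miR-181d with any locus or arm suffix. This gave 10 mature strands, 4 from the 5p arm and 6 from the 3p arm, out of 685 miRNA names and 805 small RNA names in the tables. All 10 were counted in all 12 libraries and all 10 passed the filter on low counts.

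Cortical neurons from Sprague Dawley rat embryos of day 17 were plated at 100000 cells per square centimetre, received lentivirus after 10 days in vitro and were lysed after 14. The virus expressed a non-targeting short hairpin RNA (shNTC, the control), one against Stau2 (shStau2) or one against Pum2 (shPum2, which the study also used as a control for background changes caused by an shRNA), with 4 libraries per group numbered 1 to 4. All groups, the control included, therefore carried a lentivirus and an shRNA, and the sources used here do not say how many embryos stand behind a library. Small RNA counts hold no mRNA, and how far Stau2 and Pum2 were depleted was not analysed here.

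Library totals lay between 3836349 and 5415763 counts. The 8 listed neuronal miRNAs, among them miR-124-3p, miR-9a-5p and miR-128-3p, were detected in every library and summed to between 279671 and 345158 CPM. They did not weigh equally in this sum. With all arms, miR-9a took 22.8% of the miRNA counts over the 12 libraries, miR-128 9.11% and miR-124 0.525%. CPM is the usual per-library scaling of counts, here to the library's miRNA total adjusted by trimmed mean of M-values (TMM). The listed miRNAs of astrocytes or dividing cells summed to 6806 to 9541 CPM in shNTC, 4670 to 6128 in shStau2, wholly below shNTC, and 5490 to 7582 in shPum2. Those of vessels or mesenchyme summed to 572 to 1105 CPM, with 1 of 8 names at 0 in some library. Those of blood or microglia summed to 142 to 397 CPM, where 7 of 8 names were in the tables and 2 of these were at 0 in some library. The oligodendrocyte list stood at 223 to 408 CPM and the choroid or ciliated list at 1917 to 4194 CPM. In such bulk samples, fewer cells of a type and less RNA per cell cannot be told apart.

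A miRNA hairpin is cut into a duplex, of which a strand is loaded into an Argonaute protein and directs it to mRNAs, mainly through the seed, bases 2 to 8 from the 5′ end. The miR-181 family is made from 3 pairs of neighbouring hairpins and is abundant in brain and in lymphocytes. In mice miR-181a adjusts the sensitivity of T-cell receptor signalling, and in rodent neurons miR-181a has been tied to the AMPA receptor subunit GluA2. The 5p strands are regarded as the guides of the family, and the 3p strands as their partners. These names are kept below for all members, also for miR-181c, whose 3p strand was counted more often here than its 5p strand.

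The mature sequences show what the members share and where they part, and they are given 5′ to 3′ as in RefSeq (GRCr8), with the seed in capitals. The 4 guide strands have the same seed, ACAUUCA, and no other mature name of the RefSeq table carries it:
miR-181a-5p: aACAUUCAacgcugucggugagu
miR-181b-5p: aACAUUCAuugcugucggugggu
miR-181c-5p: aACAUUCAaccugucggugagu
miR-181d-5p: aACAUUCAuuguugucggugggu
Counted from the 5′ end, miR-181b-5p differs from miR-181a-5p by A9U, C10U and A21G, and miR-181d-5p differs from miR-181b-5p by C12U alone. The shorter miR-181c-5p is 1 edit away from miR-181a-5p. Near-identical strands can trade reads when counts are assigned, which makes the split between these members uncertain.

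The partner strands fall into several seeds, which the next set shows. The seed CCAUCGA is shared by miR-181a-1-3p and miR-181c-3p, which come from different chromosomes and differ by U16G and U19G, in that order:
miR-181a-1-3p: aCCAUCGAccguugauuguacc
miR-181c-3p: aCCAUCGAccguugaguggacc
miR-181a-2-3p: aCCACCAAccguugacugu
miR-181b-1-3p: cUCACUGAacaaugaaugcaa
miR-181d-3p: cCACCGGGggaugaauguca
RefSeq matched 9 of the 10 members, and for miR-181b-2-3p no sequence is printed.

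In assembly GRCr8 the hairpins lie in 3 places, all on the plus strand. Mir181a-1 and Mir181b1 are neighbours on chromosome 13, within the bounds of LOC108352541, with miR-181a-5p at chr13:52037081-52037103 and miR-181b-5p at chr13:52037263-52037285. Mir181a2 (chr3:43025563-43025679) and Mir181b2 (chr3:43026666-43026753) lie within the bounds of Nr6a1, which encodes a nuclear receptor, and of LOC120101539. Mir181c (chr19:40888291-40888396) and Mir181d (chr19:40888474-40888556) lie next to each other near Nanos3 and inside no listed gene. The count tables hold names without positions, and the sequence of miR-181a-5p is the same at Mir181a-1 and Mir181a2. The sequence of miR-181b-5p at Mir181b1 also stands in the hairpin of Mir181b2. The hairpin of Mir181c, the only hairpin of the family whose 3p strand was counted more often than its 5p strand, is shown with its 2 mature strands in capitals:
Mir181c: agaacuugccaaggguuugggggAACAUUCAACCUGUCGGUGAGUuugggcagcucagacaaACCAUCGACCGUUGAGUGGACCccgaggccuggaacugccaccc

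The family took 0.698% ± 0.0730 of the miRNA counts of a library (SD, n = 12), with a range of 0.577 to 0.798%. With 4 libraries per group, shNTC had 0.690% ± 0.0836, shStau2 0.693% ± 0.0350 and shPum2 0.710% ± 0.105 (SD), so the groups differed by less than the spread between their libraries. For scale, the family of miR-29 took 0.845%, the neuronal miR-124 0.525%, miR-30 1.99% and let-7 with miR-98 21.4% over the same libraries. The 4 guide strands made up 87.3% ± 1.22 of the family's counts (SD, n = 12), and miR-181a-5p alone made up 58.6% ± 1.64.

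Levels below are CPM scaled by trimmed mean of M-values (TMM), and are shares of a library and not amounts per cell. Strands of 19 to 23 bases were compared without a correction for length. The guide miR-181a-5p was the most abundant member at 4084 ± 389 CPM over the 12 libraries and ranked 32 among the 685 miRNA names. In shNTC it stood at 3965, 4074, 3451 and 4254 CPM in replicates 1 to 4, in shStau2 at 4021, 4286, 4249 and 4545, and in shPum2 at 3707, 4506, 3432 and 4516. The 3 groups overlapped, and the lowest values were those of shNTC replicate 3 and shPum2 replicate 3.

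The guide miR-181b-5p came next at 1423 ± 146 CPM (SD, n = 12), lower than miR-181a-5p in 12 of 12 libraries and with no overlap of their ranges. Its values were 1444, 1359, 1241 and 1539 CPM in shNTC, 1327, 1462, 1408 and 1415 in shStau2, and 1343, 1777, 1243 and 1517 in shPum2. The highest was shPum2 replicate 2, and the groups overlapped. The ratio of miR-181a-5p to miR-181b-5p counts was 2.87 over all libraries and stayed between 2.54 and 3.21.

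The guide miR-181d-5p had 334, 350, 344 and 466 CPM in shNTC, 319, 363, 386 and 382 in shStau2, and 343, 468, 371 and 468 in shPum2. Its 3 highest libraries, shNTC replicate 4 and shPum2 replicates 2 and 4, stood apart from the other 9. The guide miR-181c-5p, from the neighbouring hairpin, had 177, 211, 176 and 233 CPM in shNTC, 167, 188, 192 and 188 in shStau2, and 187, 234, 208 and 182 in shPum2, with overlapping groups. It was counted at 0.510 times the level of miR-181d-5p.

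Of the partner strands, miR-181a-1-3p was the most abundant at 491 ± 41.2 CPM (SD, n = 12). It stood at 441, 471, 482 and 527 CPM in shNTC, 460, 462, 583 and 497 in shStau2, and 455, 464, 531 and 513 in shPum2. The partner miR-181c-3p stood at 282, 297, 311 and 354 CPM in shNTC, 293, 295, 374 and 325 in shStau2, and 287, 301, 322 and 309 in shPum2. In both strands the highest library was shStau2 replicate 3 and the lowest shNTC replicate 1. The partner miR-181a-2-3p stood lower, at 57.5 ± 4.80 CPM with a range of 46.3 to 64.5.

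The remaining 3 strands were rare. The partner miR-181b-1-3p stood at 11.04, 10.6, 14.5 and 10.7 CPM in shNTC, 10.9, 12.1, 11.4 and 9.35 in shStau2, and 8.09, 7.18, 11.2 and 7.78 in shPum2. The partner miR-181d-3p had 7.58 ± 1.51 CPM (SD, n = 12), and miR-181b-2-3p 2.83 ± 1.05 CPM, which came from 6 to 19 counts a library, above the floor of 3 counts. In the order of mean levels, the neighbours miR-181a-1-3p and miR-181d-5p, miR-181d-5p and miR-181c-3p, and miR-181b-1-3p and miR-181d-3p had overlapping ranges over the 12 libraries, while the other 6 pairs of neighbours did not overlap.

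**Figure D1:**
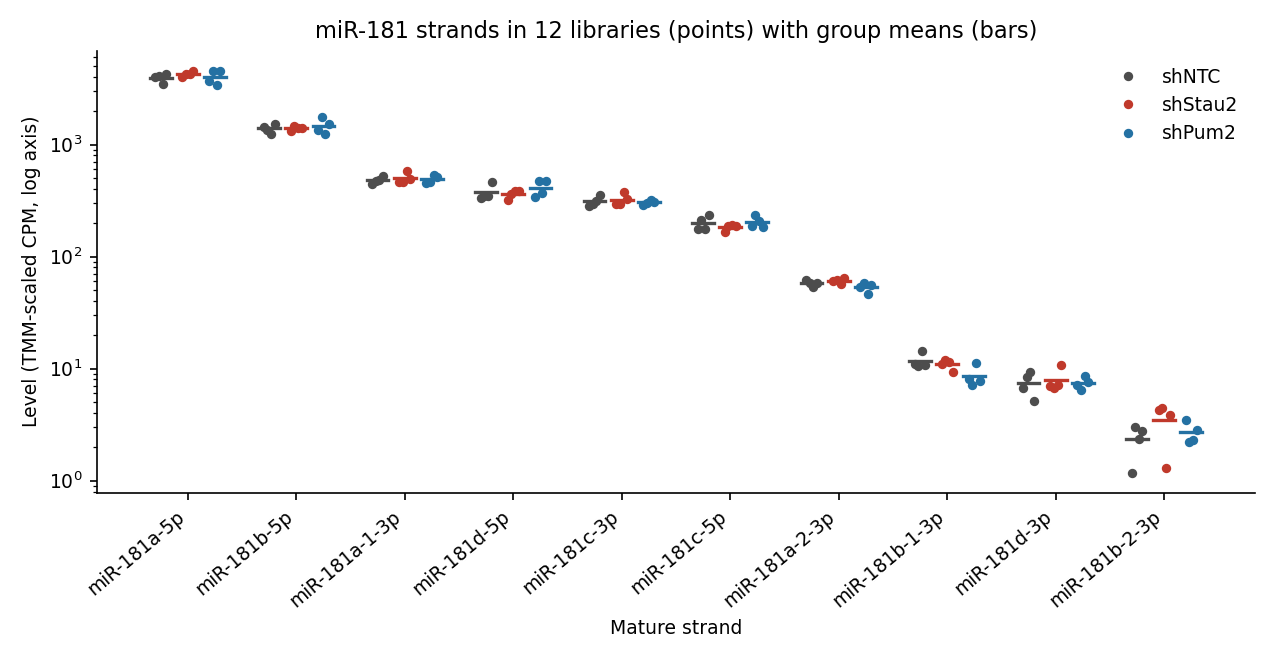
Level of each miR-181 strand in TMM-scaled CPM on a log axis, with a point per library, a bar at each group mean and colours for the 3 groups. The 3 groups lie over each other at every strand, from miR-181a-5p near 4084 CPM to miR-181b-2-3p at 2.83 CPM.

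Between shStau2 and shNTC, the comparison of Staufen2 depletion with the control, no member of the family passed the test. With edgeR's quasi-likelihood test, 0 of 10 members had a Benjamini-Hochberg adjusted p under 0.05, where 0.318% of the 628 miRNAs tested did. At an unadjusted p under 0.05 the count was again 0 of 10 members, against 11.3% of all miRNAs, and DESeq2 called 0 members and 2.87% of all miRNAs. DESeq2 gave no adjusted p for 3 members here, miR-181b-1-3p, miR-181b-2-3p and miR-181d-3p. The median log2 fold change of the members was 0.05, beside 0.00 over all miRNAs. None of the 10 members had groups that did not overlap, which 9.55% of all miRNAs had.

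The values for the guides bound what could have gone unseen. For miR-181a-5p the log2 fold change was 0.12 (SE 0.10, edgeR adjusted p = 0.721), with a 95% interval from 0.940-fold to 1.25-fold. Its level was higher in shStau2 in 4 of 4 pairs with the same replicate number. Such counts of pairs, here and below, were not tested and were not set beside those of all miRNAs. For miR-181b-5p the difference was 0.01 (SE 0.11), with an interval of 0.859-fold to 1.18-fold. For miR-181c-5p it was -0.11, with an interval of 0.775-fold to 1.10-fold, and for miR-181d-5p -0.04, with 0.797-fold to 1.18-fold. Among the partners the rare miR-181b-2-3p had the largest value, 0.57, with a wide interval of 0.864-fold to 2.57-fold.

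Between shPum2 and shNTC, where Pumilio 2 was the target, again no member passed. With edgeR's test 0 of 10 members were called, where 0% of all miRNAs were, and DESeq2 called 0 as well. At an unadjusted p under 0.05 there was 1 member, miR-181b-1-3p, against 1.43% of all miRNAs. Its mean was 8.57 ± 1.80 CPM in shPum2 and 11.7 ± 1.87 CPM in shNTC (SD, n = 4), a log2 fold change of -0.45 (SE 0.18, edgeR adjusted p = 0.982). It was lower in shPum2 in 4 of 4 same-number pairs, but shPum2 replicate 3 lay inside the range of shNTC, and the strand rested on 29 to 74 counts a library. Without shNTC replicate 3, or without shPum2 replicate 1, 2 or 4, 0 members had an unadjusted p under 0.05, and the log2 fold change was -0.33 without shNTC replicate 3.

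For the guides in shPum2 against shNTC, the log2 fold change was 0.04 for miR-181a-5p (0.889-fold to 1.19-fold), 0.08 for miR-181b-5p (0.900-fold to 1.23-fold) and 0.03 for miR-181c-5p (0.854-fold to 1.22-fold). For miR-181d-5p it was 0.14 (0.907-fold to 1.34-fold), with a higher level in shPum2 in 4 of 4 pairs. That value was 0.27 without shNTC replicate 4 and 0.07 without shPum2 replicate 4. The median over the members was 0.03 and that over all miRNAs 0.00. No member had groups that did not overlap, as 1.11% of all miRNAs had.

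The comparison of shStau2 with shPum2, each with an shRNA against an mRNA, gave 0 of 10 members called by edgeR, where 0.478% of all miRNAs were called, and 0 members by DESeq2 (1.11% of all miRNAs). At an unadjusted p under 0.05 there were 0 members against 9.39% of all miRNAs. The largest differences belonged to the rare miR-181b-2-3p at 0.35 and miR-181b-1-3p at 0.35 on the log2 scale (edgeR adjusted p = 0.776 and 0.544). Of these, miR-181b-1-3p was higher in shStau2 in 4 of 4 pairs and miR-181b-2-3p in 3 of 4. The partner miR-181a-2-3p had 60.8 ± 3.20 CPM in shStau2 and 53.5 ± 5.07 in shPum2 (SD, n = 4; log2 fold change 0.19, interval 0.967-fold to 1.34-fold), higher in shStau2 in 4 of 4 pairs. The guide miR-181d-5p had -0.19 (0.722-fold to 1.07-fold). This comparison and the previous ones share their libraries and are no independent evidence for each other. The median over the members was 0.08 and that over all miRNAs 0.01. None of the 10 members had groups that did not overlap, which 4.94% of all miRNAs had.

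With the replicate number as a block, which narrowed the intervals, still 0 of 10 members passed in any of the 3 comparisons. In shStau2 against shNTC the blocked interval was 0.986-fold to 1.20-fold for miR-181a-5p and 0.892-fold to 1.14-fold for miR-181b-5p. It was 0.805-fold to 1.07-fold for miR-181c-5p and 0.855-fold to 1.11-fold for miR-181d-5p. The same fit called 6.21% of all miRNAs in shStau2 against shNTC, 0.159% in shPum2 against shNTC and 3.98% in shStau2 against shPum2. The smallest adjusted p of a member in each was 0.305 for miR-181a-5p, 0.417 for miR-181b-1-3p and 0.229 for miR-181b-1-3p, by edgeR. At an unadjusted p under 0.05 the block gave 0, 1 and 2 members in these comparisons, against 22.5%, 7.32% and 19.7% of all miRNAs. DESeq2 with the block called 0 members, against 6.05%, 0.318% and 5.41% of all miRNAs, and gave no adjusted p for the same 3 members in shStau2 against shNTC and for miR-181b-2-3p in shStau2 against shPum2.

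**Figure D2:**
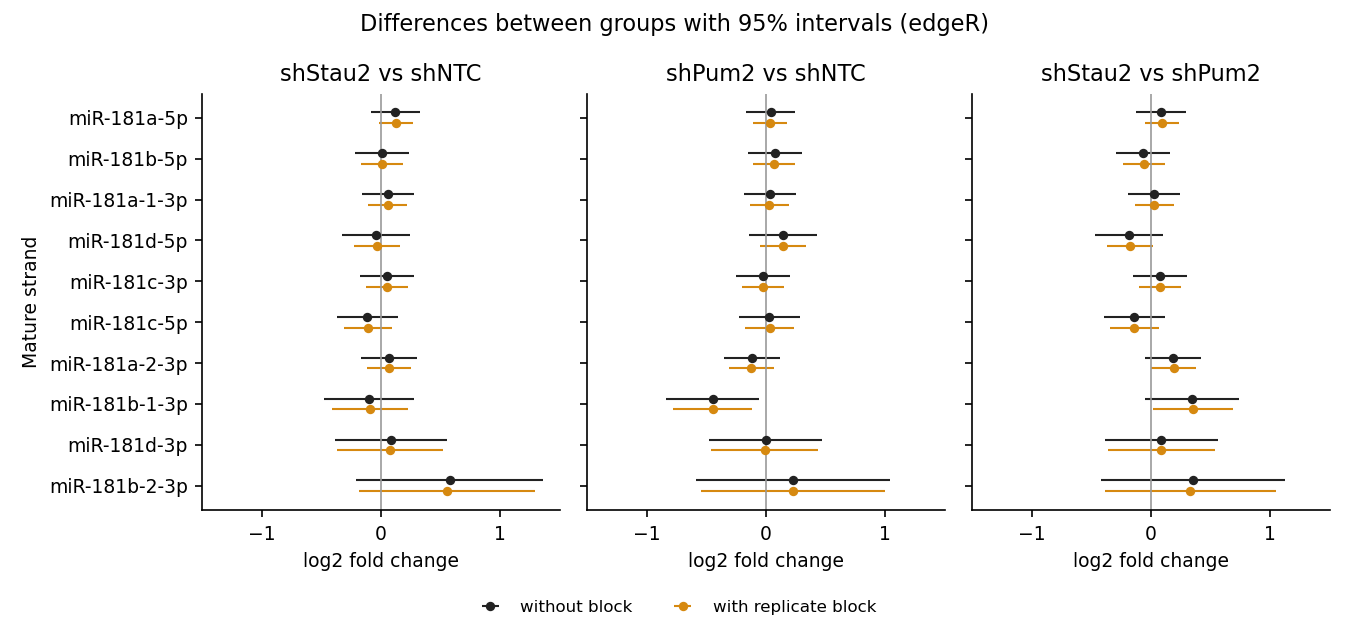
Log2 fold change of each miR-181 strand in the 3 comparisons, with 95% intervals from edgeR, without (black) and with (orange) the replicate number as a block. The intervals are narrow for the abundant strands and wide for the 3 rare strands at the bottom. Without the block only that of miR-181b-1-3p in shPum2 against shNTC leaves out 0, and with it also those of miR-181b-1-3p and miR-181a-2-3p in shStau2 against shPum2.

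The balance of the arms was then compared, since both strands come from the same hairpin. In 5 of the 6 hairpins the 5p strand dominated in every library, by 8.33-fold for mir-181a-1, 50.5-fold for mir-181d, 71.1-fold for mir-181a-2, 137-fold for mir-181b-1 and 502-fold for mir-181b-2 as ratios of mean CPM. The 5p strands of miR-181a and miR-181b come from 2 loci each, so these ratios set both loci against the partner of 1. In mir-181c the order was the other way round: miR-181c-3p stood above miR-181c-5p in 12 of 12 libraries, by 1.602-fold. Its 5p strand is 1 edit from miR-181a-5p and its 3p strand 2 substitutions from miR-181a-1-3p, which were both counted more often. Whether exchanged reads moved this ratio was not tested. Over all 238 pairs of arms measured, the 3p strand was the more abundant in 42.9%, so a 3p lead as such is common.

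Neither knockdown shifted an arm ratio of the family past the threshold of limma's test. In all 3 comparisons 0 of 6 miR-181 ratios were called, as were 0% of the 238 ratios, and at an unadjusted p under 0.05 there were 0, 1 and 0 miR-181 ratios against 8.4%, 5.04% and 9.24% of all. For mir-181c the log2 ratio had a mean of -0.65 ± 0.14 in shNTC, -0.80 ± 0.13 in shStau2 and -0.59 ± 0.17 in the shPum2 libraries (SD, n = 4). Its difference was -0.15 in shStau2 against shNTC (95% interval -0.42 to 0.11, limma adjusted p = 0.657). The 1 ratio with an unadjusted p under 0.05 was that of mir-181b-1 in shPum2 against shNTC, a difference of 0.51 (interval 0.04 to 0.97, limma adjusted p = 0.895), which rests on the rare miR-181b-1-3p described above. Without shNTC replicate 3, or without shPum2 replicate 1, 2 or 4, no miR-181 ratio had an unadjusted p under 0.05. With the block 0 miR-181 ratios passed, against 0.84%, 0% and 0% of all ratios, and at an unadjusted p under 0.05 there were 0, 1 and 2, against 15.5%, 8.4% and 17.6%.

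**Figure D3:**
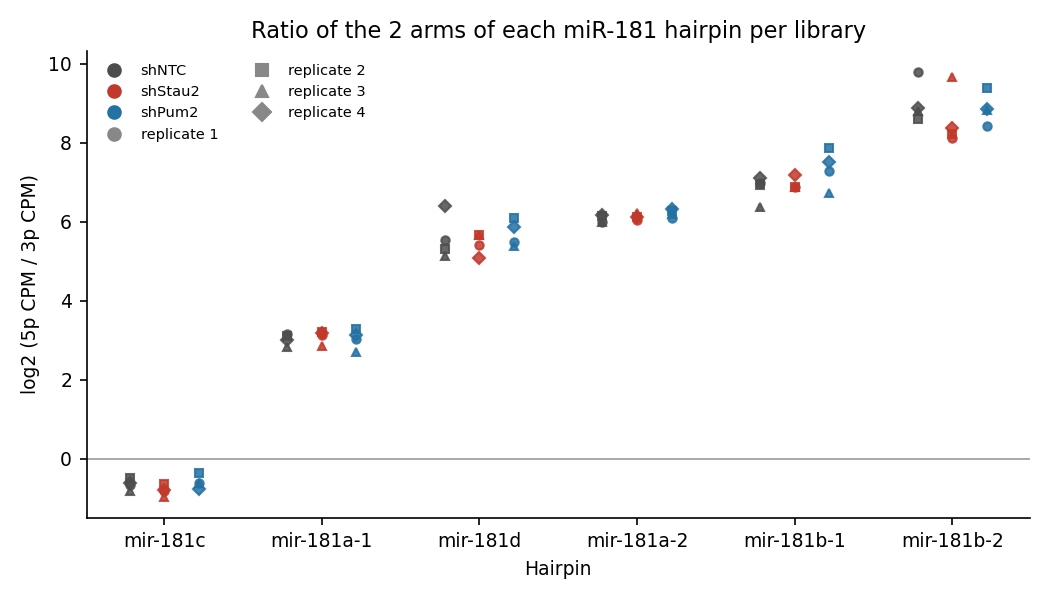
Log2 ratio of 5p to 3p CPM for the 6 miR-181 hairpins in each library, coloured by group and shaped by replicate number. The ratio of mir-181c lies below 0 in 12 of 12 libraries and the ratios of the other hairpins lie above 0, with the 3 groups at similar heights.

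The partner strands also show how the loci compare, because they differ between the copies of miR-181a and of miR-181b. Of the counts of miR-181a-1-3p and miR-181a-2-3p together, 89.5% ± 1.26 belonged to miR-181a-1-3p (SD, n = 12), and the group means were 89.2% ± 1.11 for shNTC, 89.1% ± 1.38 for shStau2 and 90.1% ± 1.35 for shPum2 (SD, n = 4). Of miR-181b-1-3p and miR-181b-2-3p together, 78.5% ± 7.27 belonged to miR-181b-1-3p (SD, n = 12), with 83.3% ± 5.88 in shNTC, 76.4% ± 9.003 in shStau2 and 75.7% ± 5.55 for the shPum2 libraries (SD, n = 4), whose ranges overlapped. Strands of neighbouring hairpins were counted unequally: miR-181a-1-3p had 46.8 times the counts of miR-181b-1-3p, and miR-181c-3p 41.0 times those of miR-181d-3p. These are shares of counted strands and do not measure how much of each hairpin was made.

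Libraries with the same replicate number resembled each other across all miRNAs, so the members were also compared between the 4 numbers. In the F-test of the replicate-number term in edgeR's block fit, a test added after the data were seen, 1 of 10 members passed, miR-181d-5p (adjusted p = 0.0391), where 26.1% of all miRNAs did. It averaged 332, 394, 367 and 439 CPM over the 3 libraries of numbers 1 to 4. It did not pass without number 1 or without number 4. The guide miR-181a-5p averaged 3898, 4289, 3711 and 4438 CPM and missed the threshold (adjusted p = 0.0519). It passed with DESeq2 size factors (adjusted p = 0.0341), with upper-quartile factors (0.0182), without the filter on low counts (0.0303) and with library totals only (0.00180).

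The partner miR-181a-1-3p averaged 452, 466, 532 and 512 CPM (adjusted p = 0.137 in the same F-test). By these averages it was highest in number 3, where miR-181a-5p was lowest. Within the groups both held in shPum2 alone. In shNTC miR-181a-1-3p was highest in replicate 4 (527 CPM), and in shStau2 miR-181a-5p was lowest in replicate 1 (4021 CPM). The ratio of these arms did not pass for the replicate number in limma's test (adjusted p = 0.0556), nor did any other ratio of the family, where 9.24% of all ratios did. Over the 12 libraries the members had a median coefficient of variation of 9.89% among the 8 with a mean of at least 10 CPM, beside 14.2% for all 448 such miRNAs. The sets were not matched for level, on which this measure depends. The rare miR-181b-1-3p had 19.6%, and miR-181d-3p and miR-181b-2-3p, below 10 CPM, had 19.9% and 37.0%.

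**Figure D4:**
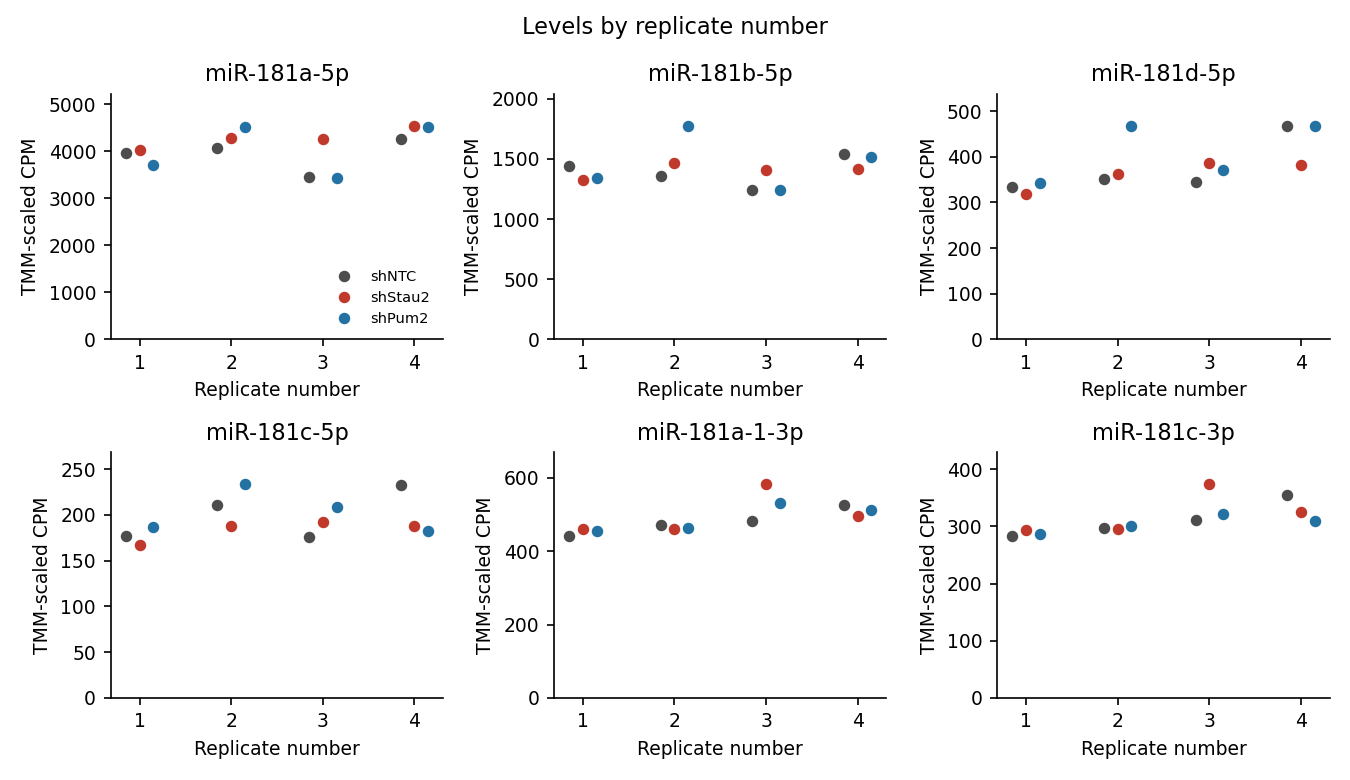
TMM-scaled CPM of the 6 most abundant miR-181 strands by replicate number, with a point per library coloured by group and the axis starting at 0. The guide miR-181d-5p averages 332 CPM in number 1 and 439 CPM in number 4. On average miR-181a-1-3p is highest in number 3, where miR-181a-5p is lowest, but within the groups both hold in shPum2 alone.

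Which strands varied together is given as a description over the 12 libraries, which share replicate numbers and are not independent. The guides miR-181a-5p and miR-181b-5p had a Pearson r of 0.79, and miR-181b-5p and miR-181d-5p of 0.74. The highest r within the family joined miR-181a-1-3p and miR-181c-3p, at 0.94. Their count ratio was 1.57 over all libraries and stayed between 1.49 and 1.66. These partners come from different chromosomes, share a seed and differ at 2 bases, as printed above, and whether reads were exchanged between them was not tested. Values with the guide of the same hairpin were r = 0.09 for miR-181a-1-3p and miR-181a-5p, and r = 0.36 for miR-181c-3p and miR-181c-5p. With each replicate number centred they were 0.57 and 0.46. The other partner of miR-181a-5p, miR-181a-2-3p, had r = 0.69 with it (0.60 centred). The rare partners ran the other way or varied little with their guides. Values with miR-181b-5p were -0.64 for miR-181b-1-3p and -0.09 for miR-181b-2-3p (-0.51 and -0.66 centred). That of miR-181d-3p with miR-181d-5p was -0.36 (-0.68 centred). For comparison, miR-181b-5p and miR-181d-5p, 1 substitution apart, had a count ratio between 3.24 and 4.32, and miR-181a-5p and miR-181c-5p, 1 edit apart, between 16.5 and 24.8.

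Outside the family, the 3 most similar of 440 miRNAs with a mean of at least 10 CPM were named for each guide. As the highest of 440 values, these r are raised by the selection, and none was tested against chance. For miR-181a-5p they were miR-3473 (r = 0.83), miR-1247-5p (0.80) and miR-127-3p (0.80), an imprinted miRNA of the Dlk1-Dio3 region. For miR-181b-5p they were miR-183-5p (0.87) and miR-182 (0.79), which belong to a cluster of sensory cells, and miR-199a-5p (0.80), a miRNA of mesenchymal cells. For miR-181c-5p they were miR-17-1-3p (0.80), miR-194-5p (0.72) and the neuronal miR-137-3p (0.71). With each replicate number centred, r was 0.60, 0.78 and 0.77 for those of miR-181a-5p, in the order named. Those of miR-181b-5p had 0.84, 0.79 and 0.81, and those of miR-181c-5p 0.87, 0.57 and 0.81.

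For miR-181d-5p they were miR-143-3p (0.92), a miRNA of smooth muscle and mesenchymal cells, miR-342-5p (0.87) and miR-199a-3p (0.86). In shNTC miR-143-3p stood at 34.3, 112, 79.8 and 244 CPM, in shStau2 at 46.1, 104, 96.9 and 164, and in shPum2 at 54.5, 294, 93.7 and 244. Its 3 highest libraries were those in which miR-181d-5p was highest, and with both centred on each replicate number r was 0.89. The centred r of miR-181d-5p was 0.83 with miR-342-5p and 0.78 with miR-199a-3p. The 8 listed miRNAs of vessels or mesenchyme, all in the tables, summed to 664 to 1001 CPM in shNTC, 572 to 835 in shStau2 and 637 to 1105 in shPum2. The log2 of this sum had r = 0.88 with miR-181d-5p, 0.72 with miR-181b-5p, 0.63 with miR-181c-5p and 0.55 with miR-181a-5p. Spearman's rho was 0.74, 0.69, 0.52 and 0.66 in the same order. The list holds miR-143-3p and miR-199a-3p, named above for their high r with miR-181d-5p, and miR-199a-5p, named for miR-181b-5p. For miR-181d-5p and miR-181b-5p, the r of the sum is therefore no separate evidence. Of the 8, miR-143-3p, miR-145-5p (0.79), miR-145-3p (0.65), miR-199a-5p (0.79) and miR-199a-3p varied with miR-181d-5p, miR-214-3p did so little (0.21), and the endothelial miR-126a-3p (-0.31) and miR-126a-5p (-0.31) ran the other way. The summed neuronal list, whose members weigh unequally, had r = 0.08 with miR-181d-5p and -0.34 with miR-181a-5p (Spearman's rho 0.38 and -0.07). The list of astrocytes or dividing cells had r = -0.41 with miR-181d-5p and -0.52 with miR-181a-5p (rho -0.60 and -0.71), and the oligodendrocyte list 0.09 and -0.53 (rho 0.22 and -0.31). The part of other cells in the levels of miR-181d-5p and miR-181a-5p was not tested.

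**Figure D5:**
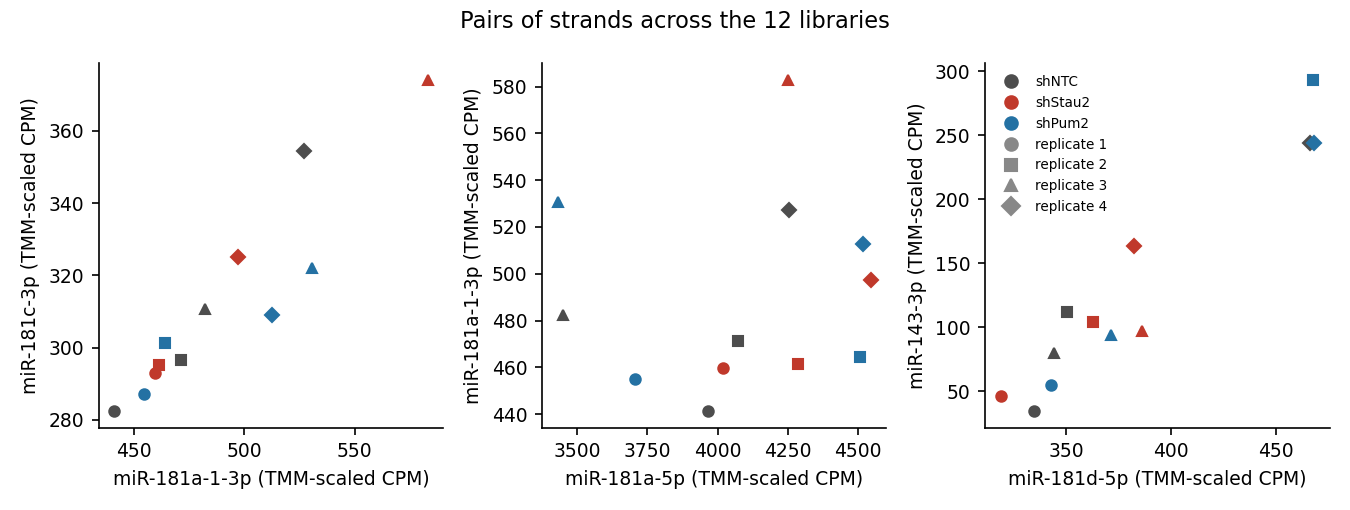
TMM-scaled CPM of 3 pairs of strands in the 12 libraries, coloured by group and shaped by replicate number. The partners miR-181a-1-3p and miR-181c-3p lie along a line (r = 0.94), miR-181a-5p and its partner miR-181a-1-3p do not (r = 0.09, or 0.57 with each replicate number centred), and miR-181d-5p lies along a curve with miR-143-3p (r = 0.92 on the log2 scale).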

How the data were processed

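Each of the 12 libraries had its own deposited table of raw whole-number counts by small RNA name. Per the labels' protocols, the library kit adds unique molecular identifiers, and the submitters' processing notes give the genome build Rnor 6.0. Aligner, counter, and whether molecules or reads were counted are not given in the sources used here. A floor of 3 counts, which covers counting error only, was 0.558 to 0.788 CPM of the miRNA total, without TMM scaling. Libraries of a group differed by more than sampling noise and were used as 4 replicates. Whether they came from separate cultures is stated only as biological replicates, so p-values measure the spread between these samples.

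The miRNA counts were tested in R 4.3.3 with edgeR 4.0.16 (TMM, filterByExpr by group, robust quasi-likelihood test, all 12 libraries in a joint fit). Of 685 names 628 were tested and 57 removed. Two-sided p-values were adjusted over these 628 by the Benjamini-Hochberg method and called at 0.05. Intervals are 95%. Log2 ratios of 5p to 3p CPM (prior count 2) of 238 pairs of arms were tested with limma 3.58.1 and adjusted over the 238. On simulated counts for shStau2 against shNTC over 622 miRNAs, edgeR recovered 93.9% of 98 changes of 1 on the log2 scale. Over 236 arm ratios limma recovered 87.3% of 55. In this simulation 99 further miRNAs changed by 2 and 425 did not change, so a far larger share changed than was called in the data. This makes the adjusted threshold easier to pass, and the rates do not give the power for the family. Of the unchanged, edgeR called 0%, and limma 1.69% of 118 ratios. DESeq2 1.42.0 was an alternative.

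Same-number libraries of different groups deviated together (12 pairs, r between 0.36 and 0.57, against -0.41 to 0.14 for the 36 other pairs), and 12 of 12 libraries correlated best with their own number, so the numbers pair the libraries. Members and lists were chosen with earlier results of these data known. All members are named. The non-members named are the 3 with the highest Pearson r of log2 CPM to each 5p strand, among those with a mean of at least 10 CPM. RefSeq sequences are from assembly GRCr8, whose positions were not converted.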

Additional observations from a re-analysis of the deposited data

Results flagged for a closer look

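In groups of 4 libraries, a library was listed where its gap to the nearest other, as a share of the group's range, exceeded the 95% critical value of Dixon's test. Of 51 groups of values 6 were listed, where chance lists about 1 in 20. The partner miR-181b-1-3p stood at 14.5 CPM in shNTC replicate 3, against 10.6 to 11.04 in the other 3. The guide miR-181d-5p stood at 466 CPM in shNTC replicate 4, against 334 to 350. The guide miR-181c-5p stood at 167 CPM in shStau2 replicate 1, against 188 to 192. The partner miR-181d-3p stood at 10.8 CPM in shStau2 replicate 4, against 6.73 to 7.12. The log2 arm ratio of mir-181b-1 was 7.17 in shStau2 replicate 4, against 6.87 to 6.89, and that of mir-181b-2 was 9.66 in shStau2 replicate 3, against 8.13 to 8.37.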

How the results depend on the processing

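The count of members called stayed at 0 in the 3 comparisons under every alternative run: other size factors, library totals, no filter, DESeq2, piRNA names added, the 8 libraries of a comparison alone, each library left out, and the replicate block with and without each number. Of 840 values of members 833 had an adjusted p, and DESeq2 gave none for the other 7. The smallest was 0.132, and that among 300 values of arm ratios, where the count stayed at 0 too, 0.203. Of 810 differences of members under an alternative, 62 had another sign than as reported, and of 282 differences of arm ratios 13 had; none of these was called. The replicate block changed no call, and its values stand beside the results. The miR-181 family share of miRNA counts was 0.689 to 0.709% with each library left out, and 0.692% of all small RNA counts. The test between replicate numbers depended on the processing: in place of 1 member, 2 passed with DESeq2 size factors, 2 with upper-quartile factors, 2 without the filter and 4 with library totals only, and 0 to 2 with a number left out. For arm ratios 1 passed where none did as reported, with a prior count of 0.5 in place of 2 (miR-181a-5p to miR-181a-1-3p, adjusted p = 0.0486), and 0 with any number left out. The cause was not tested. With library totals, the median of all miRNAs in shStau2 against shNTC was -0.06. Depth limits the 3 rarest partners, with 6 to 74 counts a library.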
